A study of Mus musculus with 8 samples.

Results

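The 5 mouse genes described here encode the ATG8 proteins that the autophagy receptor AKAP11 is known to bind: the LC3 genes Map1lc3a and Map1lc3b, and the GABARAP genes Gabarap, Gabarapl1 and Gabarapl2. They were chosen by name, and their Ensembl identifiers matched 5 of the 57186 genes listed in the count files. All 5 passed the low-count filter and stood among the 16766 genes tested. Binding to AKAP11 is not measured by RNA counts.

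ATG8 proteins are small ubiquitin-like proteins of the autophagy pathway. The protease ATG4 trims each precursor behind a glycine, and enzymes that resemble the ubiquitin cascade then join that glycine to a membrane lipid on the growing autophagosome. Once on the membrane, ATG8 proteins hold cargo receptors, which carry a short motif called the LC3-interacting region. AKAP11 is an A-kinase anchoring protein that tethers protein kinase A and carries such a motif. In neurons, autophagosomes formed in axons travel back towards the cell body, and turnover by this route is needed for neuronal survival.

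RNA was measured in brain tissue of 2 groups of mice, Akap11 conditional knockout (cKO) and control, with 4 libraries in each. Brain region, age, sex, strain, recombinase driver, deleted exons and the cells that lost the gene were not stated in the labels. Reads in genes numbered from 13841218 to 19991942 per library. The share of reads that fell in genes was lowest in cKO replicate 1, at 63.8%, with all others between 73.7% and 79.7%. It had the highest share of ambiguous reads (10.1%, others 5.14% to 6.16%). Its shares of low-quality alignments (7.18%, others 2.15% to 4.04%) and unaligned reads (10.4%, others 3.31% to 6.66%) were also the highest. This library stood apart on the first principal component. Control replicate 1 stood apart on the second. Brain markers were present in every library, with summed levels of 5592 to 6030 CPM (reads scaled to the library's total reads in genes) in cKO and 5814 to 6063 CPM in control libraries for 6 neuronal genes. Summed liver markers were at most 0.203 CPM in cKO and 0.505 CPM in control libraries, with no read of Alb or Serpina1a in any library. Of the 6 astrocyte markers, 3 had a positive and 3 a negative log2 fold change. Only Aqp4, a water channel gene, passed the edgeR test described next (log2 fold change 0.46, adjusted p 0.0104). Its call was lost without control replicate 2 (edgeR adjusted p 0.159), control replicate 4 (0.114), cKO replicate 2 or cKO replicate 4. Gfap (0.33) and Gja1 (0.06) were also higher in cKO, while Slc1a2 (-0.20), Slc1a3 (-0.08) and Aldoc (-0.02) were lower.

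Akap11, the targeted gene, was lower in cKO brain, and its groups of libraries did not overlap. Its levels, scaled to library size by the TMM method, were 220, 214, 237 and 240 CPM in cKO replicates 1 to 4, against 373, 312, 315 and 291 CPM in control replicates 1 to 4. The log2 fold change was -0.50 (SE 0.069, edgeR adjusted p 0.0103), a fall of 29.3%. The call was lost without control replicate 2 (log2 fold change -0.52, edgeR adjusted p 0.0616) and without cKO replicate 2 (-0.47, adjusted p 0.104). Akap11 RNA in cKO brain thus stood at 0.707 times the control level in bulk tissue, where fewer cells with the transcript and less transcript per cell cannot be told apart.

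The members are related in sequence but distinct enough to be counted apart. The ends of their coding sequences are shown because the codon of the glycine that ATG4 exposes lies there, and the members differ in what follows it. Each line holds the last 30 bases of the coding sequence, stop codon included, read 5′ to 3′ from the principal transcript in the GENCODE M21 annotation (GRCm38), with the last glycine codon in capitals.
Map1lc3a: tacgcctcccaagaaaccttcGGCttctga
Map1lc3b: gagacattcGGGacagcaatggctgtgtaa
Gabarap: tacagtgatgaaagcgtctatGGTctgtga
Gabarapl1: tacagtgatgaaagtgtctatGGAaaatga
Gabarapl2: tacagcggagagaacacttttGGCttctga

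Map1lc3b has 5 codons between that glycine and the stop codon, and each of the other 4 members has 1. The coding sequences hold 121 codons in Map1lc3a and 125 in Map1lc3b, and 117 in each of the GABARAP genes, without the stop codon. The LC3 pair shared 74.7% of its aligned coding bases, and Gabarap shared 74.9% with Gabarapl1. Gabarapl2 stood further off within its subfamily, at 64.5% identity to Gabarapl1 and 63.1% to Gabarap. Across the subfamilies identity ran from 50.4% to 55.5%. No pair of principal transcripts shared an unbroken run of more than 17 bases.

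Pseudogene copies can take reads from their parent genes. RefSeq names 14 as copies of Map1lc3 or Gabarapl2 genes, and 11 of these had an entry in the count files. Together they held 90 reads over the 8 libraries, or 0.0616% of the 146047 reads of the members. Gm6055, which shares a run of 205 bases with Map1lc3b and is the closest by that measure, held 70 of the 90 reads; the shortest such run, in Gm6048, had 15 bases. The count files list reads without a unique alignment apart from the genes, so any read that fits a gene and its copy alike is missing from the levels of Map1lc3b and Gabarapl2, which carry that uncertainty. Map1lc3b also overlaps an exon of Zcchc14 on the opposite strand, which held 15024 reads over the 8 libraries, and Gabarapl1 overlaps the non-coding gene 1700101I11Rik in the same way, with 143 reads. Whether the counting used strand is not given in the sources used here. Ambiguous reads were most frequent in cKO replicate 1 (10.1%), and their part in the levels of Map1lc3b and Gabarapl1 was not tested.

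Gabarapl1 was the most abundant ATG8 transcript in brain. Gabarapl1, also called GEC1, binds microtubules and the GABA-A receptor as well as autophagosomes. Per kilobase of its exons, it stood at 228 ± 14.2 CPM in cKO and 232 ± 3.23 CPM in control brain (SD, n = 4 each), higher than 99.4% of the 16463 genes tested that had a length. Its lowest library, at 209 CPM per kilobase, lay above the highest library of any other member. Map1lc3a, encoding LC3A, came next at 112 ± 11 CPM per kilobase in cKO and 101 ± 2.10 in control brain, above 98.3% of genes.

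The order of the remaining members depended on which length was used. With all annotated exons joined, Gabarap stood at 53.9 ± 2.79 CPM per kilobase in cKO and 51.6 ± 3.10 in control brain. Gabarapl2 stood at 46.5 ± 2.23 in cKO and 47.7 ± 1.10 in control brain, and Map1lc3b at 31.1 ± 2.22 in cKO and 29.5 ± 0.241 in control brain. The joined exons of Map1lc3b span 7517 bases, while its longest transcript has 4138 and its principal transcript has 2532 bases.

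With the length of the principal transcript, Map1lc3b took the third place, at 92.3 ± 6.59 CPM per kilobase in cKO and 87.5 ± 0.717 in control brain. On that scale Gabarap stood at 73.6 ± 3.81 in cKO and 70.4 ± 4.22 in control brain, and Gabarapl2 at 64.4 ± 3.09 in cKO and 66.1 ± 1.52 in control brain. Gabarapl1 and Map1lc3a kept the first and the second place, at 252 ± 15.7 and 119 ± 11.6 in cKO, against 256 ± 3.58 and 107 ± 2.23 in control brain. The ranges of Gabarap and Gabarapl2 over the 8 libraries overlapped on both scales, and no other neighbours in either order did. Within each of the 8 libraries Gabarap lay above Gabarapl2 on both scales.

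As a share of the 5 transcripts summed per length, Gabarapl1 made up about as much as the other 4 members together. Per joined exon length its share was 48.4% ± 1.96 in cKO and 50.2% ± 0.661 in control brain (SD, n = 4 each). Map1lc3a followed with 23.7% ± 1.77 in cKO and 21.9% ± 0.526 in control brain. Gabarap held 11.4% ± 0.437 in cKO and 11.2% ± 0.629 in control brain, Gabarapl2 held 9.86% ± 0.464 in cKO and 10.3% ± 0.223 in control brain, and Map1lc3b held 6.61% ± 0.671 in cKO and 6.39% ± 0.0758 in control brain. With principal transcript lengths, Map1lc3b held 15.4% ± 1.41 in cKO and 14.9% ± 0.168 in control brain, and Gabarapl1 41.9% ± 1.97 in cKO and 43.6% ± 0.627 in control brain.

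**Figure D1:**
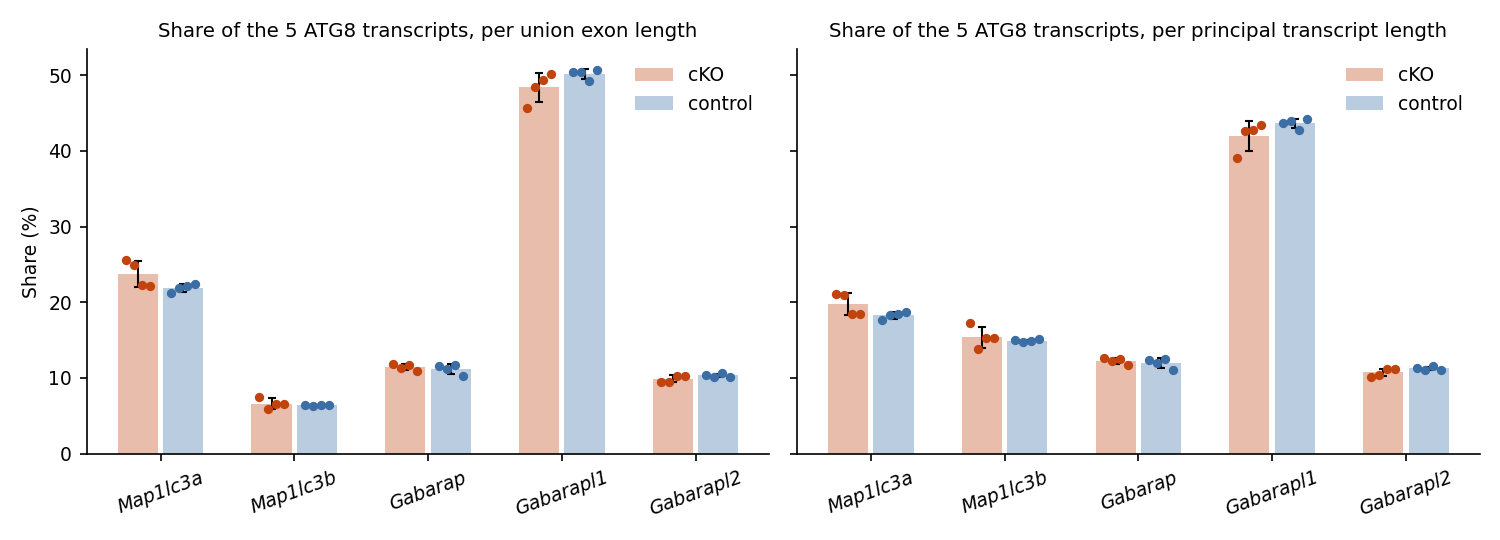
Share of each ATG8 transcript among the 5, in percent of their sum per length, in each brain library (points), with the mean (bar) and SD (whisker, n = 4) for cKO (orange) and control (blue). Gabarapl1 holds the highest share on both length scales, while the share of Map1lc3b is 6.61% in cKO per joined exon length and 15.4% in cKO per principal transcript length.

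Between the groups, the shares of Map1lc3a and Gabarapl1 differed most, in opposite directions, and neither difference passed the test. The share of Map1lc3a was 1.83 percentage points higher in cKO than in control brain (two-sided p = 0.114 from an exact permutation of the group labels, with 70 arrangements). Single shares were 25.6%, 24.9%, 22.2% and 22.2% in cKO replicates 1 to 4, against 21.2%, 21.9%, 22.1% and 22.4% in control replicates 1 to 4. The first 2 cKO libraries lay above all controls and the other two lay within the control range. Without cKO replicate 1 the difference was 1.21 points, and without both replicates 1 it was 0.965.

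The share of Gabarapl1 was 1.84 percentage points lower in cKO than in control brain (difference -1.84, exact permutation p = 0.0857). It was 45.6% in cKO replicate 1 and 48.5%, 49.3% and 50.1% in the other cKO libraries, against 49.2% to 50.7% in control libraries. Without cKO replicate 1 the difference was -0.912 points. The other differences were 0.218 points for Map1lc3b (p = 0.60), 0.255 for Gabarap (p = 0.514) and -0.466 for Gabarapl2 (p = 0.171), by the same exact permutation test. The 5 shares add up to 100% in each library, so these 5 comparisons are not independent. The smallest p this test can give for 4 against 4 libraries is 0.0286, and the p-values are not adjusted.

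The LC3 genes together held 30.3% ± 2.06 of the sum in cKO and 28.3% ± 0.534 in control brain. Single libraries held 33.1%, 30.8%, 28.8% and 28.7% in cKO, against 27.6%, 28.2%, 28.5% and 28.8% in control. The groups overlapped. Summed without length correction, the 5 transcripts stood at 1033 ± 28.2 CPM in cKO and 1013 ± 6.0 CPM in control brain, a difference of 1.91%. Summed levels in cKO libraries were 1018, 1073, 1032 and 1009 CPM, against 1020, 1016, 1011 and 1006 CPM in control libraries, and the groups overlapped here too.

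None of the 5 members passed the comparison of cKO with control brain by edgeR, with adjusted p-values from 0.889 to 0.960 over all 16766 genes. In that fit 0.0239% of all genes tested passed, and Akap11 was among them. An unadjusted edgeR p under 0.05 was reached by 1 member, Map1lc3a, against 4.78% of all genes. DESeq2 and limma voom also gave 0 adjusted calls among the members and 1 member with an unadjusted p under 0.05. No member had groups of libraries that did not overlap, against 2.96% of all genes.

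**Figure D2:**
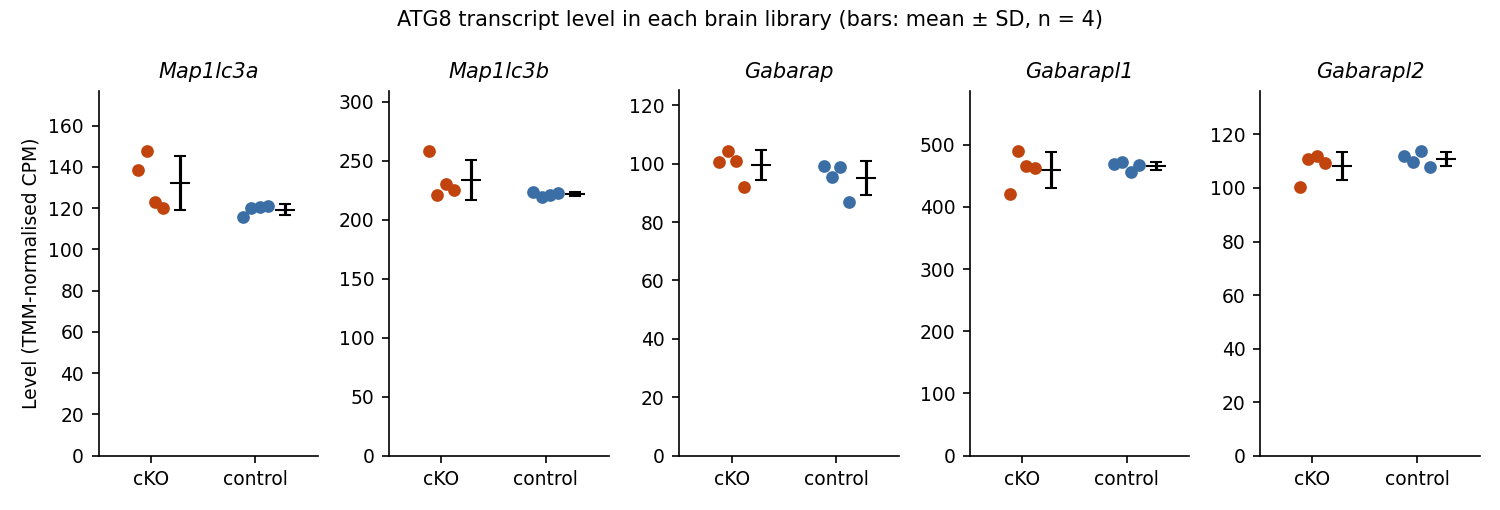
TMM-normalised CPM of the 5 ATG8 genes in each brain library, cKO (orange) left of control (blue), with the mean and SD (black, n = 4) beside the points; replicates 1 to 4 run from left to right. The groups overlap in every panel, and the control libraries of Map1lc3b lie between 219 and 224 CPM.

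Map1lc3a (ENSMUSG00000027602, chromosome 2) had the largest log2 fold change of the members. It stood at 138, 147, 123 and 120 CPM in cKO replicates 1 to 4, against 116, 120, 120 and 121 CPM in control replicates 1 to 4. Its cKO replicates 1 and 2 were high, replicate 3 lay just above the controls and replicate 4 within them. The log2 fold change was 0.15 (SE 0.066, 95% interval 0.01 to 0.29), with an unadjusted edgeR p of 0.0360 and an adjusted p of 0.889. The interval spans an increase of 0.741% to 21.9%. Without cKO replicate 2 the log2 fold change was 0.09 (unadjusted edgeR p 0.179).

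The level of Map1lc3a moved with that of other GC-rich genes. Its longest transcript is 63.1% G and C, the highest of the 5 members, against a median of 49.6% over the 10368 genes with at least 10 CPM. Among the 115 genes of that expression within 1 percentage point of its GC content, the median log2 fold change was 0.11, with quartiles of 0.05 and 0.16, and 32.2% of them had a higher value than Map1lc3a.

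Those GC-rich genes and Map1lc3a were both high in cKO replicates 1 and 2 and near the control mean in the other libraries. Relative to the control mean, their median stood at 0.28, 0.20, -0.02 and -0.04 on the log2 scale in cKO replicates 1 to 4, and between -0.02 and 0.04 in control libraries. Map1lc3a itself stood at 0.21, 0.31, 0.04 and 0.0096 in the same cKO libraries, and between -0.04 and 0.02 in control libraries. With GC-content offsets fitted per library, the log2 fold change of Map1lc3a was 0.04 (SE 0.050, unadjusted edgeR p 0.443, adjusted p 0.962). The part of GC content in the level of Map1lc3a was not tested.

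**Figure D3:**
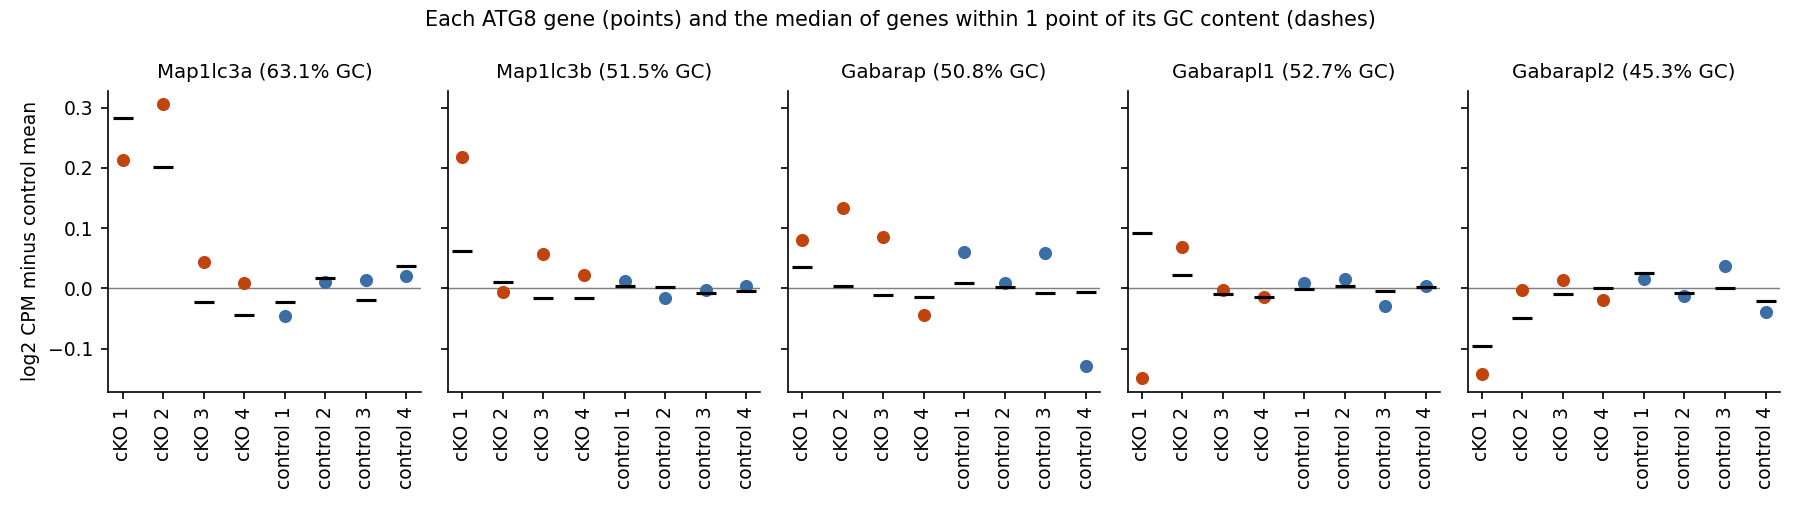
Log2 CPM relative to the control mean for each ATG8 gene (points; cKO orange, control blue) and the median of genes with at least 10 CPM within 1 percentage point of its GC content (black dashes), by library. For Map1lc3a the points and the dashes are both high in cKO replicates 1 and 2, where the dashes stand at 0.28 and 0.20.

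Map1lc3b (ENSMUSG00000031812, chromosome 8) encodes LC3B, the usual protein marker of autophagosomes. It stood at 258, 221, 231 and 225 CPM in cKO replicates 1 to 4, against 224, 219, 221 and 222 CPM in control replicates 1 to 4. The control libraries hardly varied, with a coefficient of variation of 0.819%. Replicates 1, 3 and 4 of cKO lay above all of them, replicate 1 by far the most. The log2 fold change was 0.08 (SE 0.058, 95% interval -0.04 to 0.20, edgeR adjusted p 0.889). Without cKO replicate 1 it was 0.02 (SE 0.046). That library had the lowest share of reads in genes, and also the lowest sums of the 6 neuronal markers (5592 CPM) and the 6 astrocyte markers (3909 CPM) of all 8. Not every marker was low there: Snap25, Syt1 and Slc1a2 were at their lowest of the 8 libraries, while Tubb3 (421 CPM), Aldoc (788 CPM) and Gfap (242 CPM) were at their highest. The part of these in the Map1lc3b level of that library was not tested. Genes within 1 point of the GC content of Map1lc3b had a median of 0.06 in that library, where Map1lc3b stood at 0.22.

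Gabarap (ENSMUSG00000018567, chromosome 11) encodes the protein first known for binding the GABA-A receptor. Its levels were 100, 104, 101 and 92.1 CPM in cKO replicates 1 to 4, against 99.0, 95.5, 98.9 and 86.9 CPM in control replicates 1 to 4. Replicate 4 was the lowest library of each group. The log2 fold change was 0.06 (SE 0.063, 95% interval -0.07 to 0.19, edgeR adjusted p 0.905), and 0.02 without control replicate 4.

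Gabarapl1 (ENSMUSG00000030161, chromosome 6) stood at 421, 489, 465 and 462 CPM in cKO replicates 1 to 4, against 469, 472, 457 and 468 CPM in control replicates 1 to 4. Its cKO libraries held both the lowest and the highest value of all 8. The log2 fold change was -0.02 (SE 0.056, 95% interval -0.14 to 0.09, edgeR adjusted p 0.960). Without cKO replicate 1 it was 0.01 (SE 0.046), so the sign turned. Genes within 1 point of the GC content of Gabarapl1 had a median of 0.09 in that library, where Gabarapl1 stood at -0.15.

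Gabarapl2 (ENSMUSG00000031950, chromosome 8) encodes GATE-16, known from transport within the Golgi, where it binds the fusion ATPase NSF. It stood at 100, 111, 112 and 109 CPM in cKO replicates 1 to 4, against 112, 110, 114 and 108 CPM in control replicates 1 to 4. The low value of cKO replicate 1 lay outside the control range, and the other 3 cKO libraries lay within it. The log2 fold change was -0.04 (SE 0.057, 95% interval -0.15 to 0.08, edgeR adjusted p 0.933), and -0.0063 without cKO replicate 1. Genes within 1 point of the GC content of Gabarapl2 had a median log2 fold change of -0.04. In cKO replicate 1 their median stood at -0.09 relative to the control mean, and Gabarapl2 at -0.14. The part of GC content in the level of Gabarapl2 was not tested.

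The intervals give the range of change that the spread between these libraries left for each transcript in the main fit. Shifts between fits, such as those with GC-content offsets or without cKO replicate 1, are not part of them. The 95% intervals of the edgeR fit span -3.05% to 14.5% for Map1lc3b, -4.54% to 14.5% for Gabarap, -9.12% to 6.77% for Gabarapl1 and -10.2% to 6.01% for Gabarapl2. The interval of Akap11 ran from -36.0% to -21.8%. These bounds concern RNA averaged over all cells of the sample and say nothing of lipidated protein. Each member had at least 1388 reads in every library.

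**Figure D4:**
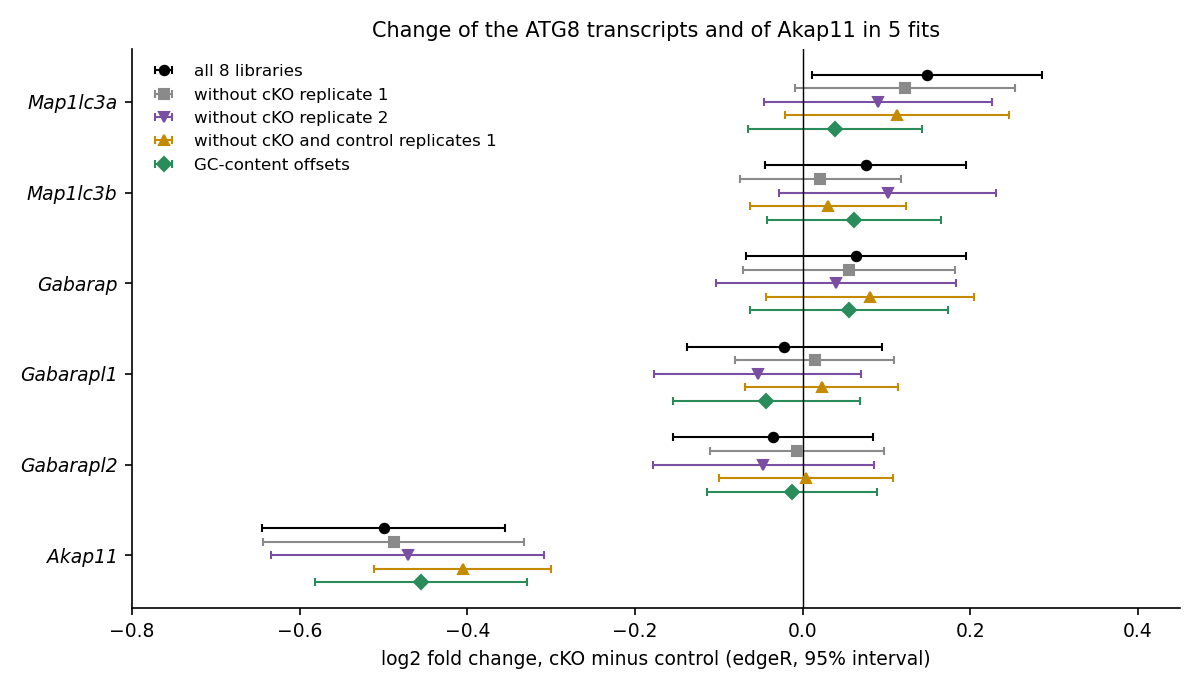
Log2 fold change, cKO minus control, of the 5 ATG8 genes and Akap11 with 95% intervals from edgeR, for all 8 libraries and 4 alternative fits. The interval of Map1lc3a lies above 0 with all 8 libraries and spans 0 in the other 4 fits, and Akap11 lies below -0.40 in all 5.

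Control libraries varied less than cKO libraries in 4 of the 5 members. The coefficient of variation was 9.79% in cKO and 2.08% in control for Map1lc3a, 7.15% in cKO and 0.819% in control for Map1lc3b, and 6.22% in cKO and 1.40% in control for Gabarapl1. It was 4.80% in cKO and 2.30% in control for Gabarapl2, and 5.18% in cKO and 6.0% in control for Gabarap. Over the 4541 genes tested with a mean of 50 to 500 CPM, the median was 6.57% in cKO and 4.5% in control libraries. The difference in spread was not tested.

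The members did not vary as a unit over the 8 libraries. Map1lc3b and Gabarapl1 ran in opposite directions (Pearson's r = -0.892 of log2 CPM, n = 8), and so did Map1lc3b and Gabarapl2 (r = -0.847). Both relations rest on cKO replicate 1: without it r was -0.324 and 0.154. Map1lc3a and Gabarapl1 had r = -0.0867 with that library and 0.819 without it. Gabarapl1 and Gabarapl2 ran in the same direction with it (r = 0.753) and had -0.253 without it. Gabarap and Gabarapl2 had 0.0946 with that library and 0.743 without it. These values are descriptions of 8 libraries that share the groups and the library differences given here.

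Of 10013 named protein-coding genes with at least 10 CPM, those most like Map1lc3a over the 8 libraries were Cuta (r = 0.981), Ubald1 (0.979) and Prrt1 (0.977). Without cKO replicate 1 these were between 0.973 and 0.979. The highest library of Map1lc3a, cKO replicate 2, was kept in these values. For Map1lc3b they were Tm2d2 (0.988), the tubulin gene Tuba1a (0.973) and Tmem41a (0.972), which had 0.900, 0.608 and 0.691 without that library. Gabarap was most like Pld5 (0.968), Adgra3 (0.962) and Dlg5 (0.944). Gabarapl1 was most like Utp3 (0.990), the axonal membrane protein gene Basp1 (0.982) and Pdap1 (0.982), and Gabarapl2 was most like Lrrc58 (0.985), Ccdc47 (0.985) and Zfp606 (0.981). These genes were ranked by r itself, so the values are a description.

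Genes that process and conjugate ATG8 proteins gave no call by edgeR, DESeq2 or limma voom. Of 13 tested, 0 passed, 9 had a positive and 4 a negative log2 fold change, and the median was 0.02 (-0.01 without cKO replicate 1), beside 0.0034 over all genes tested. The protease gene Atg4b had a log2 fold change of 0.02 (SE 0.067; -0.03 without cKO replicate 1). Atg7, whose product activates ATG8 proteins as the E1-like enzyme, had 0.04 (SE 0.26), and Atg3, which encodes the E2-like enzyme, had -0.05 (SE 0.069).

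Of the genes of the ligase complex that places ATG8 proteins on the membrane, Atg5 and Atg12 were also close to 0. Atg5 had a log2 fold change of 0.0021 (SE 0.083) and Atg12 had -0.02 (SE 0.062). Atg16l1 had 0.11 (SE 0.070). Its log2 fold change was 0.06 without control replicate 1, its lowest library, and 0.13 with GC-content offsets. Wipi2, which recruits that complex, had 0.04 (SE 0.053). Atg10, encoding the E2-like enzyme for ATG12, had the lowest unadjusted p of the list, at 7.42 ± 0.721 CPM in cKO and 9.09 ± 1.74 CPM in control brain (log2 fold change -0.30, SE 0.14, edgeR p 0.0421, adjusted p 0.889). It was the only gene of the 13 with an unadjusted edgeR p under 0.05, against 4.78% of all genes tested.

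Among selective autophagy receptors, which hold cargo and bind ATG8 proteins as AKAP11 does, 0 of 21 tested passed by edgeR, DESeq2 or limma voom. The median log2 fold change was -0.03 (-0.00072 without cKO replicate 1), with 7 positive and 14 negative. Sqstm1, encoding p62, stood at 456 ± 7.68 CPM in cKO and 464 ± 12 CPM in control brain (log2 fold change -0.02, SE 0.051). Nbr1, encoding a relative of p62, had -0.04 (SE 0.053), Tax1bp1 had -0.11 (SE 0.057; -0.05 with GC-content offsets), and Wdfy3, whose product Alfy handles protein aggregates, had -0.12 (SE 0.078; -0.03 without control replicate 1).

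Optn, encoding optineurin, had the lowest unadjusted p of the receptors. It stood at 17.8 ± 1.84 CPM in cKO and 21.1 ± 1.91 CPM in control brain (log2 fold change -0.24, SE 0.096, edgeR p 0.0201, adjusted p 0.889). It was the only one of the 21 with an unadjusted edgeR p under 0.05, near the 4.78% of all genes tested. Calcoco1, encoding a receptor for the endoplasmic reticulum and Golgi, was the only one of the 21 whose groups did not overlap, against 2.96% of all genes tested. It stood at 84.9, 87.4, 81.0 and 82.0 CPM in cKO replicates 1 to 4, against 78.8, 74.6, 79.0 and 79.96 CPM in control replicates 1 to 4 (log2 fold change 0.10, SE 0.058, edgeR adjusted p 0.889). With GC-content offsets its log2 fold change was 0.04.

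Other proteins that bind ATG8 proteins start autophagy or move and fuse autophagosomes, and 0 of their 14 genes passed by edgeR, DESeq2 or limma voom. The median was 0.01 (-0.01 with GC-content offsets), with 8 positive and 6 negative, and 0 had an unadjusted edgeR p under 0.05. The kinase gene Ulk1 stood at 106 ± 12.7 CPM in cKO and 97.4 ± 4.10 CPM in control brain (log2 fold change 0.12, SE 0.073). Its highest value, 124 CPM, was that of cKO replicate 1, without which the log2 fold change was 0.04, and with GC-content offsets it was 0.05. Plekhm1, encoding an adaptor for fusion with the lysosome, had 0.08 (SE 0.080; 0.02 without cKO replicate 1), and Fyco1, which links autophagosomes to kinesin, had 0.0047 (SE 0.075).

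Genes for GABA-A receptor subunits and trafficking partners of the GABARAP proteins gave no call either, with 0 of 6 past the test by edgeR, DESeq2 or limma voom and 0 with an unadjusted edgeR p under 0.05. Their median was -0.04 (-0.02 with GC-content offsets, -0.01 without both replicates 1), with 1 positive and 5 negative. Nsf had a log2 fold change of -0.02 (SE 0.055), and Gphn, the gephyrin gene of inhibitory synapses, had -0.02 (SE 0.056). Gabrg1 had the lowest p of the list, with -0.12 (SE 0.086; -0.04 without both replicates 1).

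Transcription factors known to drive autophagy genes, the TFEB family and the FOXO family with the repressor gene Zkscan3, had 0 of 8 tested genes past the test by edgeR, DESeq2 or limma voom and 0 with an unadjusted edgeR p under 0.05. The median was 0.01 (-0.0048 with GC-content offsets), with 4 positive and 4 negative. Tfeb stood at 9.57 ± 1.40 CPM in cKO and 8.12 ± 0.908 CPM in control brain (log2 fold change 0.23, SE 0.13, and 0.12 with GC-content offsets). Tfe3 had 0.13 (SE 0.073) and the lowest p of the list, and Foxo3 had -0.05 (SE 0.056).

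**Figure D5:**
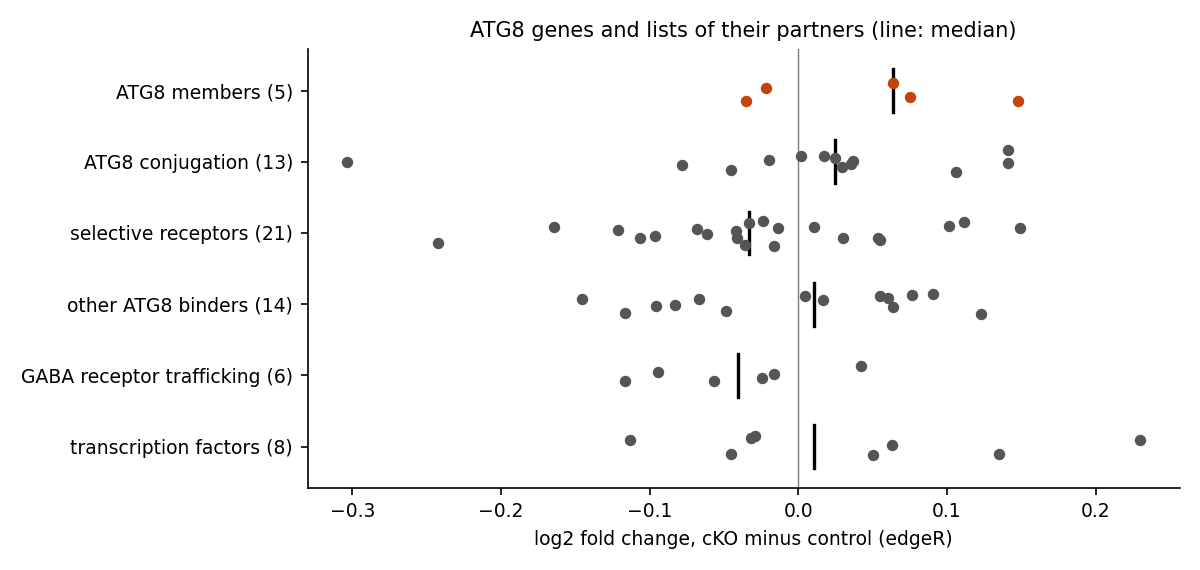
Log2 fold changes, cKO minus control, of the 5 ATG8 genes (orange) and of the tested genes of 5 partner lists (grey), with the median of each list (black line) and its number of genes in brackets. The medians run from -0.041 to 0.064, and no point shown passed the edgeR test.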

How the data were processed

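The authors deposited raw counts of reads for each gene, in 1 file a library. HISAT2 and GRCm39 are named by the submitters' processing notes; the counting program, its strand setting and the annotation are not given there. Per the labels' protocols, RNA was column-extracted and libraries were made by a commercial provider. The labels do not say that libraries are separate mice, so p-values measure the spread between libraries. Entries naming no gene (20.3% to 36.2% of listed reads) were left out.

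Genes were filtered with filterByExpr, scaled by TMM and compared by edgeR 4.0.16 (quasi-likelihood, robust, group only; R 4.3.3); p-values were Benjamini-Hochberg adjusted over all genes, with a threshold of 0.05. The fit was tested on simulated data. Lengths and GC content came from GENCODE M21 (GRCm38), matched by gene identifier, so no coordinates are given. Shares were compared by exact permutation. The alternatives included DESeq2 1.42.0, limma 3.58.1, GC-content offsets (loess span 0.5), the replicate number as a block and each library left out. Principal transcript lengths were added after seeing the data. Members and lists were chosen with earlier results of these data known. Named were the members, Akap11, genes chosen per list, the lowest p of each of the 5 partner lists and the 3 genes most like each member (1 chosen gene is not reported here); Calcoco1's groups, Atg7's replicates and the marker genes with values were singled out after their values were seen.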

Additional observations from a re-analysis of the deposited data

Results flagged for a closer look

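Among 72 groups of 4 libraries examined for a library far from the rest (levels of the named genes, members' shares and the members' sum), 1 had such a library. Atg16l1, encoding a subunit of the complex that places ATG8 proteins on membranes, stood at 55.2 CPM in control replicate 1, against 62.7 to 63.5 CPM in the other control libraries. Chance flags about 1 in 20 such groups.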

How the results depend on the processing

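No member passed the adjusted test in any of the 17 alternatives, with adjusted p of at least 0.679. Over these the log2 fold change ran from 0.04 to 0.19 for Map1lc3a, 0.02 to 0.10 for Map1lc3b and 0.02 to 0.10 for Gabarap, all positive. For Gabarapl1 it ran from -0.054 to 0.014 with 1 library left out and was 0.023 without both replicates 1, which also turned Gabarapl2 (0.0038). The unadjusted p of Map1lc3a passed 0.05 in 8 alternatives and missed it with GC-content offsets, with the replicate block, without both replicates 1 and in 6 of the 8 fits with 1 library left out. Akap11 ranged from -0.55 to -0.42 with 1 library left out, and its call ended without control replicate 2 (adjusted p 0.0616) and without cKO replicate 2 (adjusted p 0.104). Over all genes the count of calls, 4, became 2 with limma voom, 7 with no low-count filter, 2 without both replicates 1 and 0 to 3 with 1 library left out; the cause was not tested. Same-numbered libraries deviated together only weakly (r from 0.0052 to 0.0487, against -0.0899 to 0.105 for differently numbered ones). The numbers were therefore not taken to pair the libraries, although Atg7 varied with the number in both groups. A replicate block gave 2 calls and left the members' signs as they were. Share differences kept their sign with other lengths and with raw reads; with 1 library left out, those of Map1lc3b (-0.0763 to 0.468 points) and Gabarap (-0.0404 to 0.431) turned, and without both replicates 1 that of Map1lc3b did (-0.0637). Among named partner genes, Atg3, Atg4b, Atg5, Atg7, Atg12, Fyco1, Plekhm1 and Nsf changed sign in at least 1 alternative, and 0 passed the adjusted test. Each member had 1388 reads or more per library, and each group 4 libraries; their parts in the width of the intervals were not compared.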

Other observations

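Atg7, the E1-like enzyme gene, varied far more than the other conjugation genes named except Atg10, and in the same replicates of both groups. It stood at 35.1, 32.8, 18.5 and 28.8 CPM in cKO replicates 1 to 4, against 32.3, 32.7, 18.1 and 29.2 CPM in control replicates 1 to 4. Replicate 3 was the lowest library of each group. With a replicate block the SE of its log2 fold change was 0.080, against 0.26 without it, and the log2 fold change was 0.03 with the block and 0.04 without it. Atg7 was singled out after its values were seen, and no cause was tested.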
